A study of Mus musculus with 4 samples.

Results

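Phosphodiesterases and adenylyl cyclases, the enzymes that break down and make cyclic nucleotides, were followed in hippocampal neurons of the mouse kept in culture, either at their basal activity or driven into bursts of action potentials (AP bursting). Members were all genes of the deposited expression table named as a numbered phosphodiesterase with a subtype letter a to d (Pde) or as a numbered adenylyl cyclase (Adcy). This rule found 32 of 23453 genes, 22 phosphodiesterases and 10 cyclases, and used no expression value. The neurons came from newborn mice of the strain C57BL/6NCrl and were treated on day 12 in culture. The basal activity group received the vehicle DMSO, and the AP bursting group received 50 µM bicuculline, which blocks GABA-A receptors, for 4 h. Each group had 2 libraries, and the submitters describe independent experiments, each with its own cell preparation. RNA came from whole cultures, so fewer cells of a type and less RNA per cell cannot be told apart, and libraries did not keep strand.

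Cyclic AMP (cAMP) and cyclic GMP (cGMP) are second messengers. Adenylyl cyclases make cAMP from ATP, most of them at the plasma membrane under the control of G proteins, and some of them also under the control of calcium, which links them to neuronal firing. Phosphodiesterases hydrolyse cAMP, cGMP or both and so set how long and how far the signal spreads. In neurons cAMP acts through protein kinase A (PKA), the exchange factors of the Epac type and cyclic nucleotide-gated channels, and this signalling is known for its part in synaptic plasticity and in transcription through CREB.

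The deposited table gives 1 mean per group in normalized reads, that is, reads divided by a size factor per library. The reads of the single libraries were worked out from the digits of these means. Each group held a library with a larger size factor (1.33 under basal activity, 1.27 after AP bursting), called deep here, and a library with a smaller one (0.914 and 0.661), called shallow. The deep libraries deviated from their groups alike (r = 0.878 across 13648 genes), so they are treated as a pair and the shallow libraries as the other pair. The labels do not give this match. The treatment was checked with the activity marker Arc, which stood at 286 and 222 normalized reads in the deep and shallow basal libraries and at 14321 and 13355 after AP bursting. Neuronal markers were high in the authors' deposited group means (Syt1 at 30555 and 35395, Slc17a7 at 19826 and 22675). The 5 microglial markers together reached at most 74.2 normalized reads in a library, while the 5 astrocyte markers summed to between 9388 and 16377.

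No phosphodiesterase or cyclase passed the test that the authors deposited. The authors' deposited table lists an adjusted p of 1 for all 32 members, and 143 of its 23453 genes passed (0.610%). Of the 22 members with a mean of at least 50 normalized reads, 2 had a fold of at least 2 or at most 0.5 in that table, Adcy8 and Pde3a (all genes 5.99%). limma on the single libraries without a replicate block called 0 of the 30 members that could be tested, against 2 of 20226 genes (0.00989%), and 1 of the 30 had an unadjusted p below 0.05 (all genes 3.30%). limma with the pair as a replicate block called 7 of these 30 members, against 13.0% of the 20226 genes. It called 6 higher after AP bursting (all genes 6.87%): the cyclase Adcy8 and the phosphodiesterases Pde3a, Pde7a, Pde3b, Pde10a and Pde4d. It called 1 lower (all genes 6.10%), the cyclase Adcy6. Of the members called higher, 5 were phosphodiesterases among 21 tested, and the count for lower calls in that family was 0. The same fit was also made with libraries scaled to the total reads of the genes whose single libraries could be worked out. It then called 2 phosphodiesterases higher (Pde3a and Pde7a) and 2 lower (Pde1a and Pde9a). Over all genes this scaling gave 998 higher and 1936 lower calls among 20287 tested, so lower calls became the more common ones in general. With the authors' scaling and the replicate block, an unadjusted p below 0.05 was seen in 9 of the 30 members (all genes 23.2%). In the fit with the replicate block the variance of a gene comes from a trend across all genes, so its errors do not hold the gene's own spread. Without that trend it called 0 members.

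The remaining members without a test were Adcy1, whose group means matched several pairs of whole read counts, and Pde6a, whose mean was below 1 normalized read. Of all 32 members, 22 had a mean over both groups of at least 50 normalized reads, and 6 had a mean below 10.

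Per kilobase of exon, the calcium-stimulated cyclase Adcy1 and the dual phosphodiesterase Pde2a, which cGMP stimulates, were the most abundant members. In the authors' deposited group means, divided by exon length, Pde2a had 1562 normalized reads per kb under basal activity and 1697 after AP bursting, and Adcy1 had 1496 and 1689. Pde1a, which calcium and calmodulin activate, followed with 1085 and 908. The neighbours Pde2a and Adcy1 cannot be ordered against a spread, because the libraries of Adcy1 were not resolved. Adcy5 (547 and 728) and Adcy2 (315 and 375) came next. Summed over each family, the phosphodiesterases held 3922 and 4043 normalized reads per kb and the cyclases 3079 and 3420. Ratios of AP bursting to basal activity were 1.03 for the phosphodiesterases and 1.11 for the cyclases, against 1.101 for all genes. In the group means the cyclase ratio thus lay near that of all genes and the phosphodiesterase ratio lower, but the pairs went opposite ways. The sum of the tested phosphodiesterases went from 4018 to 3680 per kb in the deep pair and from 3827 to 4406 in the shallow pair. That of the tested cyclases, without Adcy1, went from 1288 to 1144 and from 1878 to 2319. The sum of all tested genes was higher after AP bursting in both pairs. Adcy1, whose libraries were not resolved, made up 1496 and 1689 of the cyclase sum in the group means. At the low end 9 members had fewer than 5 normalized reads per kb in both groups: Pde1c, Pde4c, Pde5a, Pde7b, the photoreceptor enzymes Pde6a, Pde6b and Pde6c, and the cyclases Adcy4 and Adcy10.

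**Figure D1:**
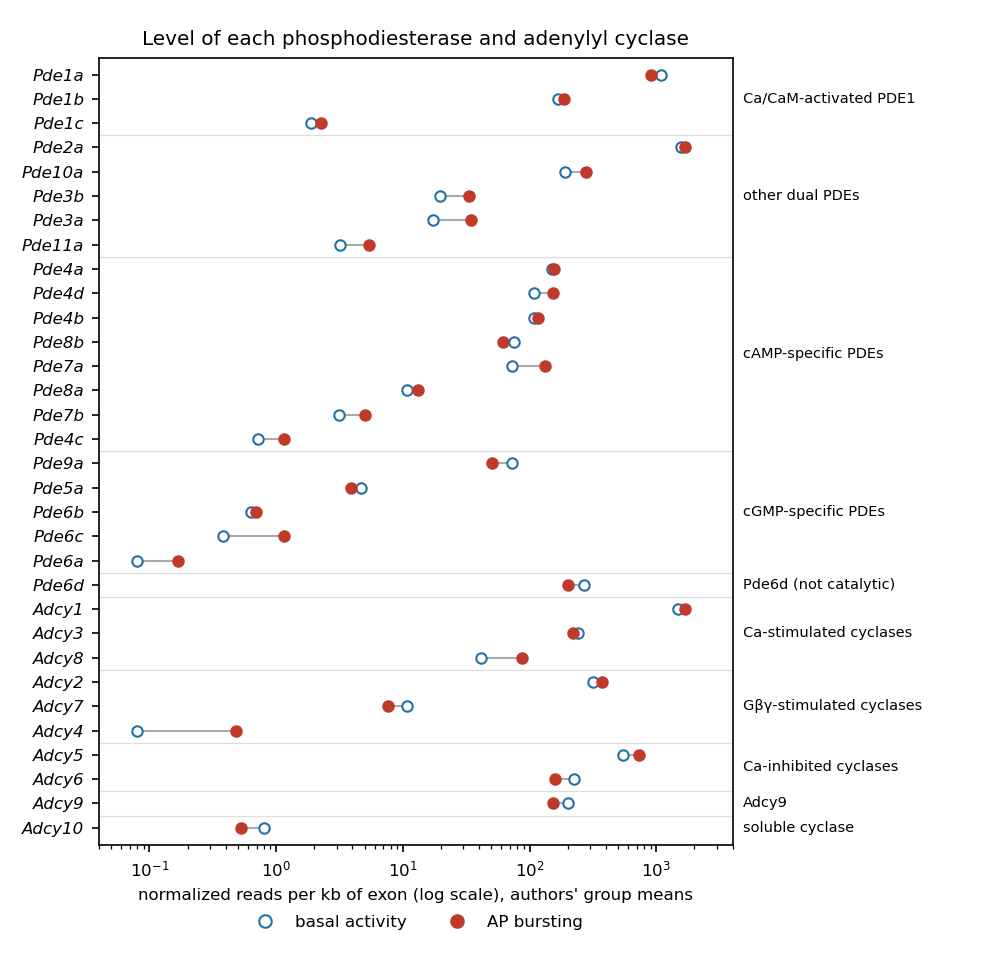
Normalized reads per kb of exon (log axis) of all 32 members, from the authors' deposited group means, in rows grouped by role. Open points are basal activity and filled points AP bursting. Adcy1, Pde2a and Pde1a lie highest in both groups, and most pairs of points lie close together compared with the spread between genes.

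The largest difference among the well-expressed members was that of Adcy8, a cyclase that calcium and calmodulin stimulate (ENSMUSG00000022376). It stood at 383 and 295 normalized reads in the deep and shallow basal libraries and at 730 and 692 after AP bursting. Both AP bursting libraries lay above both basal ones. The means were 339 ± 62.0 and 711 ± 26.8 (SD, n = 2 libraries per group), a fold of 2.10 in the authors' deposited table. limma with the replicate block gave a log2 fold of 1.08 ± 0.21 (SE; 95% interval 0.67 to 1.49; adjusted p = 9.84e-06), and the log2 fold was 0.93 for the deep and 1.23 for the shallow libraries. Without the block its unadjusted p was 0.0311 in limma.

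Of the other calcium-stimulated cyclases, Adcy3 passed neither test, and Adcy1 did not pass the authors' test and could not be tested in limma. Adcy1, a major cyclase of hippocampal neurons (ENSMUSG00000020431), had 18736 normalized reads under basal activity and 21148 after AP bursting, a fold of 1.13 in the authors' deposited table. Its basal mean matched 21772 in the deep and 15700 in the shallow library, or 19975 and 17497. Its AP bursting mean matched 19222 and 23075, or 3299 and 38997. Under each of these candidates Adcy1 was lower in the deep pair and higher in the shallow pair, so its pairs were opposite in sign, by amounts that are not known. Adcy3, known from olfactory neurons and neuronal cilia, had a log2 fold of -0.16 with a 95% interval of -0.52 to 0.19 in limma with the replicate block. A share of 22.1% of the exon bases of Adcy3 overlaps the opposite-strand gene Cenpo in the GENCODE annotation, so its reads cannot be assigned without strand.

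Among the calcium-inhibited cyclases Adcy6 (ENSMUSG00000022994) was called lower and Adcy5, best known from the striatum, was not called. Adcy6 stood at 943 normalized reads in the deep and 2116 in the shallow basal library, and at 642 and 1527 after AP bursting. The groups overlapped, since the shallow AP bursting library lay above the deep basal one, and Adcy6 was lower within each pair. Its log2 fold was -0.55 between deep libraries and -0.47 between shallow ones, and limma with the replicate block gave -0.51 ± 0.19 (SE; 95% interval -0.88 to -0.15; adjusted p = 0.0459). This call was lost when only genes averaging at least 50 normalized reads were fitted (adjusted p = 0.0512). An antisense gene overlaps 8.92% of its exon bases.

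Adcy5 stood at 2807 and 5053 normalized reads in the deep and shallow basal libraries and at 2501 and 7964 after AP bursting. It was lower in the deep pair (log2 fold -0.17) and higher in the shallow one (0.66), and its shallow libraries were higher than its deep ones in both groups. The remaining membrane cyclases gave no call. Adcy2, which G protein beta-gamma subunits stimulate, had 1263 and 1388 normalized reads in the basal libraries and 1289 and 1866 after AP bursting. Adcy9, a broadly expressed cyclase that forskolin activates poorly, had 935 and 1143 and then 640 and 954, lower in both pairs, with a log2 fold of -0.40 (95% interval -0.78 to -0.03; adjusted p = 0.172 in limma with the replicate block). The low-level Adcy7 had a log2 fold of -0.49 there (95% interval -1.11 to 0.13).

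**Figure D2:**
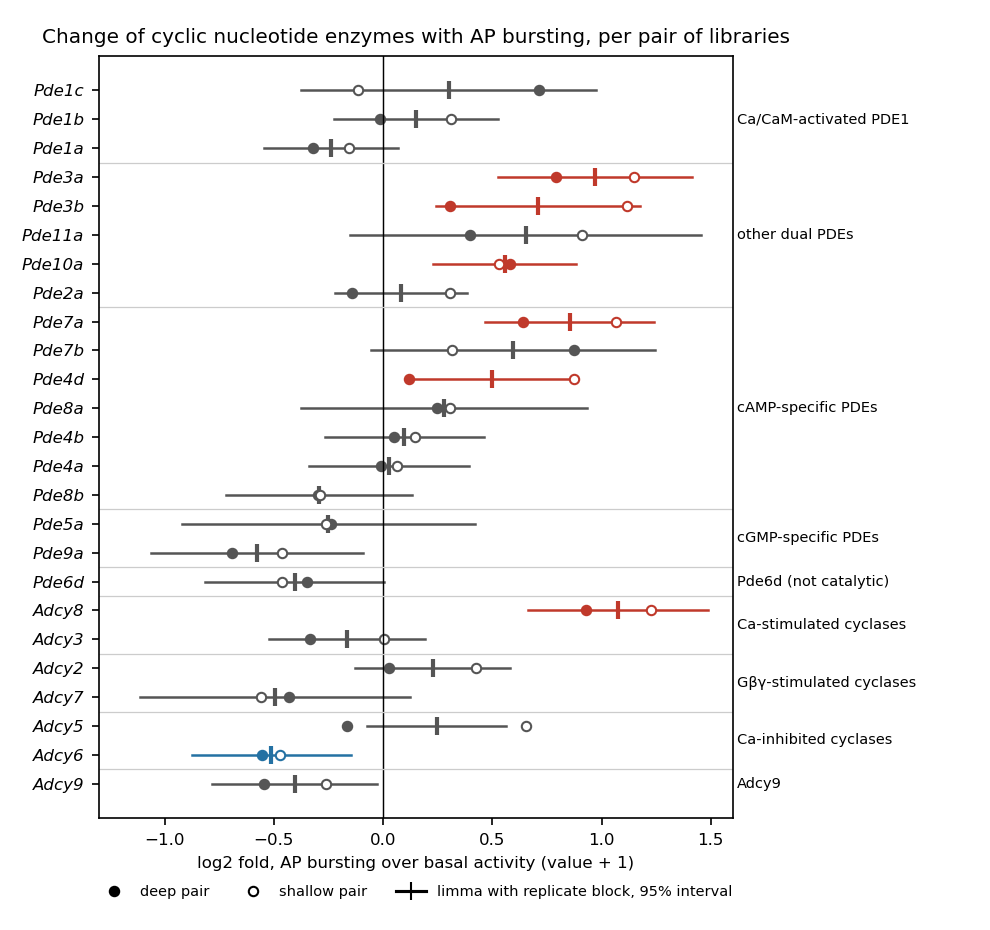
Log2 fold of AP bursting over basal activity for the 25 resolved members with a mean of at least 10 normalized reads, on the log2(value + 1) scale. Filled points are the deep and open points the shallow pair of libraries, and ticks with lines are limma estimates with the replicate block and 95% intervals; red marks members called higher, blue the 1 called lower. Adcy8, Pde3a and Pde7a have both pairs at 0.64 or higher, and Adcy5 and Pde2a have their pairs on opposite sides of 0.

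The cGMP-inhibited phosphodiesterases of the PDE3 family, which break down cAMP and are held back by cGMP, were both called higher. Pde3a (ENSMUSG00000041741) stood at 200.1 and 241 normalized reads in the deep and shallow basal libraries and at 347 and 534 after AP bursting. The groups did not overlap. Its means were 220.4 ± 28.7 and 441 ± 132 (SD, n = 2), a fold of 2.00 in the authors' deposited table, and limma with the replicate block gave a log2 fold of 0.97 ± 0.23 (SE; 95% interval 0.53 to 1.41; adjusted p = 0.000392). An antisense gene overlaps 5.82% of the exon bases of Pde3a.

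Pde3b, known from insulin signalling in fat cells (ENSMUSG00000030671), stood at 189 and 171 normalized reads in the basal libraries and at 234 and 371 after AP bursting. Its groups did not overlap either, but the pairs were unequal, with a log2 fold of 0.31 for the deep libraries and a larger one for the shallow libraries. The estimate with the replicate block was 0.71 ± 0.24 (SE; adjusted p = 0.0260 in limma).

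The dual phosphodiesterase Pde10a, which is most abundant in striatal projection neurons (ENSMUSG00000023868), was the member called higher with the most even change. It stood at 2274 and 2598 normalized reads in the deep and shallow basal libraries and at 3401 and 3759 after AP bursting. No AP bursting library fell within the basal range. Means were 2436 ± 229 and 3580.0 ± 252 (SD, n = 2), a fold of 1.47 in the authors' deposited table. The log2 fold was 0.58 for deep and 0.53 for shallow libraries, and 0.56 ± 0.17 (SE; 95% interval 0.23 to 0.88; adjusted p = 0.00994) in limma with the replicate block. With libraries scaled to the total reads of resolved genes the median log2 fold across the genes tested became -0.16. Pde10a then missed the threshold in limma with the replicate block (adjusted p = 0.0699), as did Pde3b (adjusted p = 0.125).

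Pde2a, the most abundant phosphodiesterase per kb, and Pde11a, a low-level dual enzyme, gave no call. Pde2a had 5874 and 7058 normalized reads in the deep and shallow basal libraries and 5315 and 8729.5 after AP bursting. It was lower in the deep pair (log2 fold -0.14) and higher in the shallow one (0.31). The replicate-block interval for its log2 fold ran from -0.22 to 0.38. GENCODE lists a second entry named Pde2a over nearly the same exons, so reads may be shared with it.

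Of the cAMP-specific phosphodiesterases, Pde7a and Pde4d were called higher among 8 tested. Pde7a (ENSMUSG00000069094), which has high affinity for cAMP and is not blocked by the PDE4 inhibitor rolipram, stood at 559.8 and 560.0 normalized reads in the basal libraries. After AP bursting it stood at 875 and 1173, and the groups did not overlap. The fold was 1.83 in the authors' deposited table, with a log2 fold of 0.64 for deep and 1.07 for shallow libraries. The estimate in limma with the replicate block was 0.85 ± 0.20 (SE; 95% interval 0.47 to 1.24; adjusted p = 0.000325). Its paralog Pde7b was low, at 44.2 and 33.9 normalized reads in the basal libraries and 81.9 and 42.4 after AP bursting, and was not called.

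Pde4d (ENSMUSG00000021699), a member of the rolipram-sensitive PDE4 family, stood at 1482 and 1139 normalized reads in the deep and shallow basal libraries and at 1608 and 2090.4 after AP bursting. The groups did not overlap. The change sat mostly in the shallow pair, with a log2 fold of 0.88 against 0.12 in the deep pair. Its estimate with the replicate block was 0.50 ± 0.18 (SE; adjusted p = 0.0453 in limma). The call was lost in the fit limited to genes averaging at least 50 (adjusted p = 0.0769), with total-read scaling (adjusted p = 0.218) and with a pseudocount of 8 (adjusted p = 0.0555).

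The other PDE4 genes, Pde4a and Pde4b, lay near a log2 fold of 0. In limma with the replicate block Pde4a had 0.03 (95% interval -0.34 to 0.39) and Pde4b, a gene known for isoforms that cAMP induces, 0.10 (95% interval -0.27 to 0.46). Pde4b stood at 1257 and 1034 normalized reads in the basal libraries and at 1301 and 1144 after AP bursting. Pde8b was lower in both pairs, at 456 and 431 and then 370.0 and 353, with a log2 fold of -0.29 (95% interval -0.72 to 0.13) and no overlap of the groups. Pde8a and Pde4c were higher in both pairs and were not called.

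**Figure D3:**
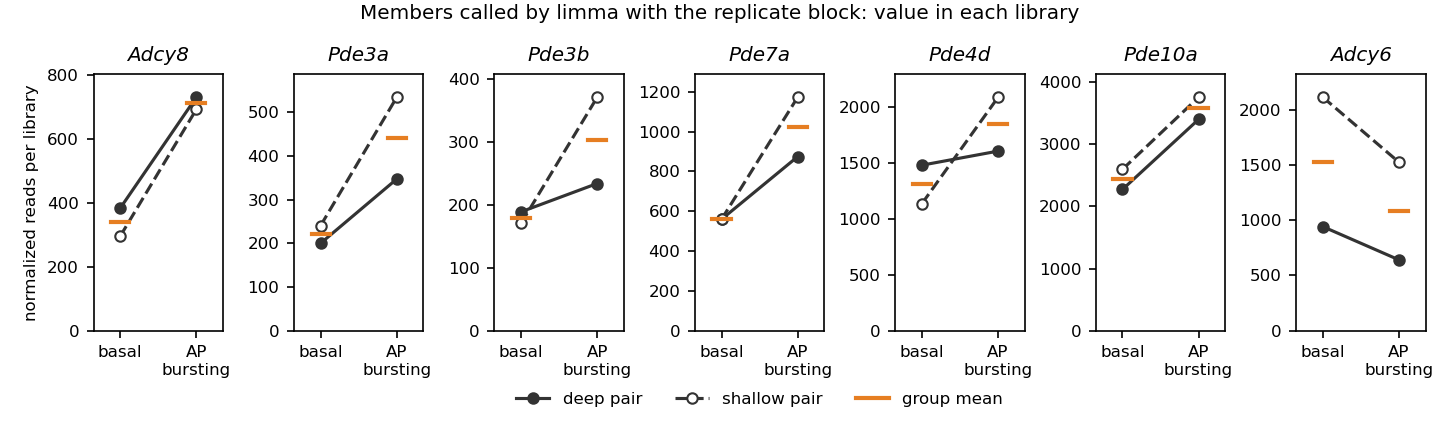
Normalized reads per library of the 7 members called by limma with the replicate block, each axis starting at 0. Filled points joined by solid lines are the deep pair, open points with dashed lines the shallow pair, and bars are the group means. In Adcy8, Pde3a, Pde3b, Pde7a, Pde4d and Pde10a both AP bursting libraries lie above both basal ones, while in Adcy6 the groups overlap and each line slopes down.

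Promoter windows, 250 bases before to 50 after a start, were taken from RefSeq (build GRCm38.p6) for 24 of the 32 members; Adcy6, Adcy8, Pde3a, Pde3b, Pde6a, Pde6c, Pde7a and Pde9a had no entry. The windows of Pde10a and Pde4d are shown because these members were called higher, and 1 of the 4 windows of Pde4b, a known cAMP-inducible gene that was not called, because it holds a match to the motif that the other 3 lack. Capitals mark a match to TGACG, the core of the cAMP response element, on either strand, which among the windows shown was found once, on the minus strand of Pde4b window 1. The Pde10a windows lie at chr17:8801495-8801794 and chr17:8849735-8850034 (plus strand), the Pde4d window at chr13:108653927-108654226 (plus strand) and Pde4b window 1 at chr4:102421305-102421604 (plus strand).
Pde10a window 1: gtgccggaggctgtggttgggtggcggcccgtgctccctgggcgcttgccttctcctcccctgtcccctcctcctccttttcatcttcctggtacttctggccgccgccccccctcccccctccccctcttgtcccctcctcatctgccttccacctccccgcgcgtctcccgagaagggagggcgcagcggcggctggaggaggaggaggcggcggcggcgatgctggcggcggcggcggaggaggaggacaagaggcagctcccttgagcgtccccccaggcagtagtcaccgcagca
Pde10a window 2: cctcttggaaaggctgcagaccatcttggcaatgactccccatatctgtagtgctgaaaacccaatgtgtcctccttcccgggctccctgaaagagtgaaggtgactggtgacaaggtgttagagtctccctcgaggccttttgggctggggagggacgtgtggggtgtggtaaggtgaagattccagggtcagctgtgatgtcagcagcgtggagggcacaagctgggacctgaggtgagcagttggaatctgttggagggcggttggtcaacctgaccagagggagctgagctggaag
Pde4d: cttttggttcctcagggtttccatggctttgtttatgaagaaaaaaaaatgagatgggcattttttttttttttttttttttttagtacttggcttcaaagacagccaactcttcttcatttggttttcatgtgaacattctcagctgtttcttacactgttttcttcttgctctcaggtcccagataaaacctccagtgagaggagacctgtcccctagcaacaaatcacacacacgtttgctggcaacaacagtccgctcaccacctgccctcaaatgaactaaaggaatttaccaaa
Pde4b window 1: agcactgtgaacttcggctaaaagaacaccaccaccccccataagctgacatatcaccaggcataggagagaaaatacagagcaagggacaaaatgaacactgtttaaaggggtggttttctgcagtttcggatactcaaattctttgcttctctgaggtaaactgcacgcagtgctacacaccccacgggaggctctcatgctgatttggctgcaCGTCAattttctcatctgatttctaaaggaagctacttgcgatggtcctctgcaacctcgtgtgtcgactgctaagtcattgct

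The full element TGACGTCA was found in 0 of 48 windows of the 24 matched members and in 1.79% of all 32851 windows in the RefSeq table. The core TGACG, which the full element also contains, was found on either strand in 8 of the 48 windows (16.7%), against 20.8% of all windows. These 8 windows belonged to Adcy7, Adcy9, Pde1a, Pde2a, Pde4a, Pde4b, Pde8a and Pde8b. Of the 7 called members only Pde10a and Pde4d had windows to search. The AP-1 letters TGANTCA were found in 4 of 48 windows (8.33%), those of Adcy3, Adcy7, Pde1c and Pde6b, against 7.81% of all windows. Pde10a and Pde4d held none of these letters in the windows shown.

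The calcium/calmodulin-activated PDE1 enzymes, which break down both messengers, gave no call. Pde1a (ENSMUSG00000059173) had 8199 and 4853 normalized reads in the deep and shallow basal libraries and 6567 and 4352 after AP bursting. It was lower within each pair, but its libraries differed more between pairs than between groups. The log2 fold was -0.24 (95% interval -0.54 to 0.07; adjusted p = 0.384 in limma with the replicate block). With total-read scaling, which called 1936 of 20287 genes lower, Pde1a, Adcy9 and Pde9a were called lower as well. Pde1b had 827 and 973 normalized reads in the basal libraries and 820.3 and 1209 after AP bursting, a log2 fold of -0.01 for deep and 0.31 for shallow libraries.

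Among the cGMP-specific enzymes Pde9a, which has a high affinity for cGMP, was the best expressed, at 145 and 368 normalized reads in the basal libraries and 89.7 and 266 after AP bursting. It was lower in both pairs (log2 folds -0.69 and -0.46) and missed the threshold in limma with the replicate block (-0.58 ± 0.25 SE; adjusted p = 0.113). Pde5a, the target of sildenafil, stood at 42.0 and 49.2 and then 35.4 and 40.9. Pde6d, which carries prenylated proteins and has no catalytic activity, was lower without overlap of the groups, at 649 and 513 normalized reads in the basal libraries and 509 and 372 after AP bursting (log2 fold -0.41; adjusted p = 0.224 in limma with the replicate block).

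The photoreceptor enzymes, Pde4c, Adcy4 and the soluble cyclase Adcy10 were near the limit of detection. Pde6a had 1 read in the basal libraries together and 2 after AP bursting, and Adcy4 had 1 and 3. Pde6c had 3 reads in the deep and 0 in the shallow basal library and 3 in each AP bursting library. Their folds in the authors' deposited table (2.10, 6.06 and 3.07) rest on these reads, and no difference was detectable at this depth. Adcy10, which bicarbonate and calcium activate, had 7 and 8 reads under basal activity and 6 and 3 after AP bursting.

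Over the 30 tested members, 14 were higher in both pairs (all genes 31.6%), 9 were lower in both (all genes 32.0%) and 7 had pairs of opposite sign (all genes 34.9%). Groups did not overlap in 7 members that were higher (all genes 12.6%) and in 4 that were lower (all genes 11.7%). Those higher were the 6 called members and Pde6c, and those lower were Pde8b, Pde5a, Pde6d and Adcy10. The median log2 fold was 0.28 for the 21 tested phosphodiesterases and -0.16 for the 9 tested cyclases, against -0.02 for all genes tested. Among members with a mean of at least 50 normalized reads the medians were 0.12 for 14 phosphodiesterases and -0.16 for 7 cyclases. Over all 21 tested phosphodiesterases the median was 0.06 for deep and 0.31 for shallow libraries. That of the 9 tested cyclases was -0.34 and 0.01, against 0.01 and -0.02 for all genes tested.

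Libraries of the same group also differed from each other. In 18 of the 30 tested members the mean log2 difference between deep and shallow libraries was larger than that between the groups, as in 71.0% of all genes tested. Such a gap always makes the groups overlap, so this count largely repeats the counts of overlap above. The shallow library was the higher one in both groups for 18 members, against 8126 of the 20226 genes tested. The deep library was the higher one in both groups for 7 members and for 8167 genes. The widest gaps among well-expressed members were in Pde9a (log2 -1.33 and -1.56 for deep minus shallow under basal activity and after AP bursting), Adcy6 (-1.17 and -1.25) and Adcy5 (-0.85 and -1.67). Pde1a ran the other way, with 0.76 and 0.59. GC content moved with these differences: across 21 members with a mean of at least 50 the correlation of transcript GC with the mean deep-minus-shallow difference was r = -0.61, and across 12674 genes it was -0.72. These are correlations across genes measured in the same libraries.

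GC content was also lower in some members called higher: Pde3a had 43.0% GC, Pde7a 43.9% and Pde3b 44.0%, against 55.4% in Adcy6. The other members called higher had 48.3% (Pde10a), 49.8% (Pde4d) and 50.8% (Adcy8). The median was 51.2% for the 21 members with a mean of at least 50 and 49.7% for 12674 genes. Across the same 21 members GC correlated with the log2 fold of AP bursting at r = -0.48, while across 12674 genes the correlation was 0.06. With each library corrected for GC, limma with the replicate block called the same 7 members, with log2 folds of 1.09 for Adcy8, 1.03 for Pde3a and -0.52 for Adcy6. The correction removes a trend fitted across all genes, so the correlation among the 21 members was not tested by it.

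**Figure D4:**
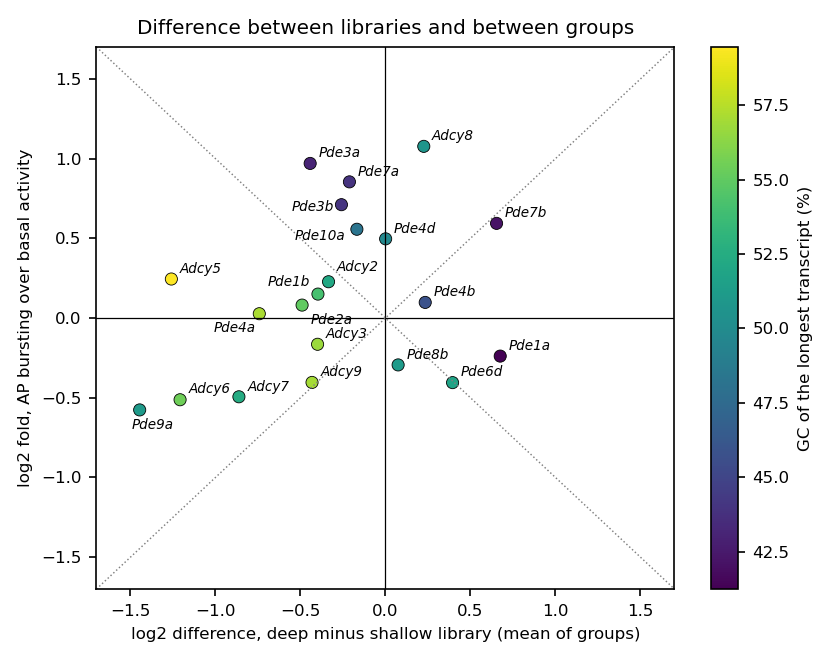
Log2 fold of AP bursting over basal activity (limma with the replicate block, vertical axis) against the log2 difference between deep and shallow libraries, averaged over both groups (horizontal axis), for the 21 resolved members with a mean of at least 50 normalized reads; colour gives GC content of the longest transcript. Dotted lines mark equal size of both differences. Adcy8, Pde3a, Pde3b, Pde7a, Pde10a and Pde4d lie in the upper sector, where the group difference is the larger one, and Pde9a, Adcy6 and Adcy5 lie far to the left.

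Markers of inhibitory neurons moved in the same direction as the members called higher, and so did the sums of several other marker lists. Of the 5 inhibitory markers 4 were resolved, and limma with the replicate block called 3 of these higher (Slc32a1, Gad2 and Sst, all genes 6.87%). The 4 summed to 16876 and 17877 normalized reads in the deep and shallow basal libraries and 22250.1 and 28112 after AP bursting. Of the excitatory markers Slc17a6 was called higher and Neurod6 lower, and the 3 resolved ones summed to 8808 and 6778 and then 5417 and 5404. None of the 5 astrocyte or 5 oligodendrocyte lineage markers was called, but both sums were higher in both pairs. The astrocyte sum went from 9388 and 12184 to 10922 and 16377, and the oligodendrocyte lineage sum from 2941 and 4330 to 2961 and 6191. The low microglial sum was also higher in both pairs. No marker in the table was at 0 in both groups. The part of cell composition in the members' changes was not tested.

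Other genes of cyclic nucleotide signalling, counted with 3 genes listed for a Pde name outside the rule, were 56 table entries. They gave 2 passes in the authors' deposited table (all genes 0.610%). The lists were chosen with earlier results of these data known, so the shares of all genes beside these counts do not measure an excess. Of 50 tested, 8 were called higher (all genes 6.87%) and 3 lower (all genes 6.10%) by limma with the replicate block, with a median log2 fold of 0.08. The lower calls were at about the share of all genes. The peptide PACAP activates cyclases through its receptor. Its gene Adcyap1 passed the authors' test and was called by limma with the replicate block. Without the block limma did not call it (adjusted p = 0.808). The authors' deposited table gives Adcyap1 a 4.81-fold rise with an adjusted p of 0.0329. It went from 211 and 93.0 normalized reads in the deep and shallow basal libraries to 889.5 and 574 after AP bursting. The receptor gene Adcyap1r1 had a log2 fold of -0.22 and was not called. Bves, a membrane protein of the Popeye family that binds cAMP, was the other gene that passed the authors' test. It rose 4.63-fold (adjusted p = 0.0369, from the authors' deposited table), from 138 and 116 normalized reads to 699 and 477. Bves was called by limma with the replicate block and not without it (adjusted p = 0.501 without the block). Its relative Popdc3 was called higher by limma with the replicate block (log2 fold 0.66).

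PKA genes and PKA anchors also gave calls in the fit with the replicate block. The regulatory subunit gene Prkar2a stood at 2095 and 1718 normalized reads in the basal libraries and at 6305 and 3471 after AP bursting, with no overlap of the groups (log2 fold 1.30 ± 0.17 SE; adjusted p = 6.12e-13 in limma with the replicate block). For Prkar2a the authors' deposited table lists an adjusted p of 0.784. The catalytic subunit gene Prkacb had a log2 fold of 0.53 and was called, whereas Prkaca had 0.09 and was not. Of 13 tested entries for PKA anchoring proteins, those of Akap1, which binds mitochondria, Akap9 and Akap10 were called lower (log2 folds -0.87, -0.57 and -0.58). Both table entries named Akap13 were called higher (0.82 and 1.18). In the cGMP list Prkg2, a cGMP-dependent kinase, was called higher at a low level (log2 fold 1.17), with 14 tested. The 5 tested G protein alpha subunits, which relay receptor signals to the cyclases, gave 0 calls, with log2 folds from -0.20 to 0.21. Among the 3 genes listed for a Pde name outside the rule, the mitochondrial Pde12 had a log2 fold of 0.46 and was not called. It was listed for its name and is not counted here as an enzyme of cyclic nucleotides.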

How the data were processed

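RNA of primary hippocampal neurons was measured in 2 libraries per group. TopHat 1.2.0, SAMtools 0.1.19, DESeq 1.12.0 and the build mm9 are named in the submitters' processing notes; the annotation and the counter were not given in the sources used here. Per the file headers, the authors deposited for each gene the normalized signal as the mean of each group, the ratio (fold) of AP bursting over basal activity, and an adjusted p-value. Their fold differed from the ratio of the deposited means by at most 6.37e-08. Of per-sample columns, 0 were left out.

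The whole reads behind each mean were searched for as multiples of 1 step per library. A single pair was found for 98.8% of basal and 99.5% of AP bursting values. The lowest means without a single pair were 10015 and 11362 normalized reads. Of 2000 values moved at random, 0 found a pair in either group. The moved values came from means well below those levels, so this check does not cover the most abundant members. Reads of genes with a single pair summed to 20954659 (deep) and 13337809 (shallow) under basal activity and to 25465442 and 13152081 after AP bursting, or 70.2% and 82.3% of the signal, so these totals are not full depths. Tests were two-sided and used limma 3.58.1 (R 4.3.3) and its variance trend on log2(value + 1), for genes averaging 1 or more, with p-values adjusted by Benjamini-Hochberg over all of them and a threshold of 0.05. This scale understates changes of low genes. The fit was made without and with the pair as a replicate block. The series text names independent experiments; which libraries belong together was inferred from the correlation of their deviations (r = 0.878). The p-values speak for 2 preparations at most. The scripts were tested on simulated data. Exon lengths (union of exons), GC content (longest transcript) and overlaps came from GENCODE by Ensembl ID, on another build than the reads, and only lengths and percentages were taken from it.

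Members and gene lists were chosen with earlier results of these data known. The result of 1 marker list is not reported here. Values in every library were given for members that either test called, for members with a mean of at least 50 and an authors' fold of at least 2 or at most 0.5, and for the best expressed member of each role class; others are given more briefly. From each pathway list at most 5 genes were named, those called first. The alternatives were a replicate block, pseudocounts, filters, scaling, no trend, leaving out each library, and, chosen after seeing the data, a GC correction. Total-read scaling used the reads of genes with a single pair in both groups, not the full depth of a library.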

Additional observations from a re-analysis of the deposited data

How the results depend on the processing

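In the authors' comparison the count of members past the threshold was 0 with a threshold of 0.1 and for genes averaging at least 50, as with the main settings. limma without a replicate block called 0 members and 0 pathway genes, also with a pseudocount of 8, no filter, total-read scaling, a GC correction, and in each leave-one-out fit (range 0 to 0), where a lone library is taken to vary as the other group does. Over all genes the fit with the replicate block called 1390 of 20226 higher and 1234 lower. These counts were 1360 and 1178 of 23162 with no filter, and 1347 and 1116 of 20226 with a pseudocount of 8. Over a mean of at least 50 they were 1126 and 960 of 13648. With total-read scaling they were 998 and 1936 of 20287, and with the GC correction 1482 and 1149 of 18239. With the replicate block the calls were 6 higher and 1 lower for members and 8 higher and 3 lower for pathway genes, the same with no filter. They were 5 and 1, and 8 and 3, with a pseudocount of 8; 5 and 0, and 7 and 3, over a mean of at least 50; 3 and 4, and 6 and 5, with total-read scaling; and 6 and 1, and 8 and 4, with the GC correction chosen after seeing the data. Without the variance trend the block fit called 0 in either direction, with 3268 genes of the table at an unadjusted p below 0.05; adjusted p of the 7 members then ran from 0.188 for Adcy8 to 0.471 for Pde4d.

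Of the 7 members called with the block, 6 kept the sign of their log2 fold in every setting tried. In these 6 both AP bursting libraries lay above both basal ones. Leaving out a library, taking a pair alone or changing the pseudocount therefore could not change their sign. Only total-read scaling and the GC correction could have done so. Adcy6 reversed where one library was left out without a block, at 0.07 without the shallow basal library and 0.11 without the deep AP bursting library, fits that leave basal activity with its deep library alone or AP bursting with its shallow library alone; its values in leave-one-out fits ran from -1.14 to 0.11. Of the 23 other members tested, 9 kept their sign. The depth does not support a statement on Pde6a, Pde6c and Adcy4, which had at most 9 reads over all libraries.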
